A study of Homo sapiens with 9 samples.

Results

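The 10 integrin genes ITGA1, ITGA2, ITGA3, ITGA5, ITGA6, ITGAV, ITGB1, ITGB3, ITGB4 and ITGB5 were followed by RNA-seq in HepG2 cells treated with eliglustat. They were chosen by name, with earlier results of these data known, as collagen-, laminin- and RGD-binding subunits and the β1 chain that the α chains share. Some other subunits that bind these ligands, such as ITGA10 and ITGA7, are not among them. Each symbol matched 1 of the 62703 gene identifiers in the count files. HepG2 is a human liver cancer cell line, and eliglustat inhibits glucosylceramide synthase, the enzyme that makes glucosylceramide, the precursor of most glycosphingolipids. There were 9 libraries in 3 groups of 3: untreated cells (control), cells given 20 µM eliglustat for 72 h and cells given 30 µM eliglustat for 72 h. The labels call the controls untreated and give no time for them, and no genotype change or second agent is given for any group. The series text dissolves the drug in distilled water and also describes a further incubation after treatment. The labels do not say whether that incubation applies to these libraries, and they are silent on whether each library is a culture of its own. The p-values therefore measure the spread between libraries, which may be technical.

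Integrins are cell-surface receptors made of an α and a β chain that tie the extracellular matrix to the actin skeleton through adaptors such as talin and kindlin. The α1 and α2 chains pair with β1 and bind collagen, the α3 and α6 chains pair with β1 and bind laminin, and α6 also pairs with β4 in hemidesmosomes. The α5β1 receptor and the αV receptors, with β1, β3 or β5, bind the RGD tripeptide of fibronectin, vitronectin and related proteins. In normal liver, hepatocytes are known for α1β1 and α5β1, whereas α2, α3, α6 and β4 are better known from bile duct cells.

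At 30 µM eliglustat, ITGA2 rose 9.27-fold against control, ITGAV 2.50-fold, ITGB1 1.68-fold, ITGB5 1.67-fold and ITGA1 1.64-fold. ITGA6 rose 1.22-fold, with a log2 change of only 0.08 when library size was the only scaling. ITGB4 fell to 0.839 of its control level, a call lost in 3 of 19 alternative settings. At 20 µM the changes were small: ITGA2 rose 1.33-fold and ITGAV 1.30-fold, ITGB5 was at 0.934 of control, a call that most alternative settings lost, and ITGB1 did not pass the test. The collagen-binding α chains made up 45.0% of the summed α-chain level per exon length at 30 µM, against 15.0% in control libraries. Levels are read counts scaled to a common library size (CPM) with TMM factors, "rose" and "fell" mark an edgeR adjusted p under 0.05 over all genes tested, and a log2 change is the first-named group minus the second. In bulk RNA, a change in the share of cells that express a gene and a change in RNA per cell cannot be told apart.

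Gene counts per library ran from 21103757 to 26782810. Alignments at more than 1 place made up 14.8 to 19.4% of records at 30 µM and 13.3 to 15.5% at 20 µM, against 12.4 to 12.8% in control libraries, and the part of this shift in the results was not tested. Of the 9 hepatocyte markers, 4 rose and 4 fell at 30 µM against control, where 29.5% of all genes tested rose and 31.3% fell. Their median log2 change was -0.01. The 9 markers summed to 39884.7 to 40242.0 CPM at 30 µM and 34254.8 to 34563.7 CPM at 20 µM, against 30617.4 to 31954.0 CPM in control libraries. Most of that sum was APOB, which rose by 0.48 on the log2 scale, while ALB, AFP, FGB and HNF4A fell by 0.47, 0.52, 0.36 and 0.23. APOA2, TTR and SERPINA1 also rose, TTR to 54.9 to 60.5 CPM at 30 µM, against 22.5 to 27.2 CPM in control libraries. The SERPINA1 rise was not called with library size as the only scaling. The 5 stellate cell or fibroblast markers, of which 2 were tested, summed to 23.2 to 25.8 CPM at 30 µM and 34.5 to 36.6 CPM at 20 µM, against 33.8 to 40.4 CPM in controls, and DCN was at 0 in all 9 libraries. The 4 endothelial markers summed to 3.96 to 4.83 CPM at 30 µM against 4.49 to 5.54 CPM in controls, and the 4 blood markers to 0.825 to 1.24 CPM against 0.933 to 1.17 CPM, with PTPRC at 0 throughout. Within these sums single markers went both ways. ACTA2, most of the stellate cell sum, fell to 21.5 ± 1.26 CPM at 30 µM, against 36.0 ± 3.26 CPM in control libraries, while PDGFRB rose to 3.01 ± 0.324 CPM, against 0.854 ± 0.0820 CPM (SD, n = 3 each). Of the endothelial markers, VWF was higher (1.85 ± 0.259 CPM against 0.306 ± 0.0468 CPM), but it passed the low-count filter only through the 30 µM libraries. Without VWF, 0 endothelial markers rose and 2 fell, PECAM1 and CDH5, by 1.21 and 0.55 on the log2 scale. The part of these markers in the results was not tested.

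RefSeq promoter windows (GRCh38.p14) were found for 7 of the 10 members: ITGA1, ITGA2, ITGA5, ITGA6, ITGAV, ITGB1 and ITGB5. The others are ITGA3, ITGB3 and ITGB4. The windows of 4 members are shown, each as the 250 bases before the RefSeq start, read 5′ to 3′ on the gene's strand. ITGA2 (chr5:52989102-52989351, plus strand) and ITGA1 (chr5:52787666-52787915, plus strand) are neighbouring collagen-receptor genes on chromosome 5 that rose by very different amounts, and ITGAV (chr2:186589806-186590055, plus strand) and ITGB1 (chr10:32958231-32958480, minus strand) are the abundant RGD-binding and shared chains that rose with them. Capitals mark GGGCGG, the GC box of SP and KLF factors, and GGAATG, a TEAD motif, on either strand.
ITGA2: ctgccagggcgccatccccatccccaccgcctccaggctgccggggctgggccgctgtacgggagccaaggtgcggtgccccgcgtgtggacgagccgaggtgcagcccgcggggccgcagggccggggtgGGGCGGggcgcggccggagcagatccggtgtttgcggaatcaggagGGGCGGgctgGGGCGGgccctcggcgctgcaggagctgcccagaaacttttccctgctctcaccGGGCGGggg
ITGA1: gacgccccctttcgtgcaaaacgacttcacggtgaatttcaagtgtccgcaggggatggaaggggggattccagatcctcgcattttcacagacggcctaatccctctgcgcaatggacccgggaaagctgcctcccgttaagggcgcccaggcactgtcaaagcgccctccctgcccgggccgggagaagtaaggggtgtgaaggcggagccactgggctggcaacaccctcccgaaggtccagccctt
ITGAV: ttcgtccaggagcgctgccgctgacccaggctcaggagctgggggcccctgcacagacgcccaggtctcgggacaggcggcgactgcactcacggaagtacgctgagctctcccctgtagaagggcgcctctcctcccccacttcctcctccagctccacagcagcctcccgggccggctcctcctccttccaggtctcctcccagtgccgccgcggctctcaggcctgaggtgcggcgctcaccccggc
ITGB1: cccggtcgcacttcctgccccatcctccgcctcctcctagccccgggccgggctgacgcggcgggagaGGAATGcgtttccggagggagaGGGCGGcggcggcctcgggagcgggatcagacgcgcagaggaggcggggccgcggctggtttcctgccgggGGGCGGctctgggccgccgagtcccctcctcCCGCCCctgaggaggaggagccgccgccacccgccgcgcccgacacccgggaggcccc

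The ITGA2 window held 4 GC boxes, starting 119, 73, 63 and 9 bases before the start, and the ITGB1 window held 3, starting 160, 89 and 58 bases before it. The ITGA1 and ITGAV windows held none. Of the member windows not shown, that of ITGB5 held 2, that of ITGA5 held 1 and that of ITGA6 held none. Of all 35116 RefSeq promoter windows, 42.6% held at least 1. GGAATG was present once in the ITGB1 window and once in that of ITGA5, against 11.9% of all windows. TGANTCA, the AP-1 motif, was searched on both strands and found in none of the 7 member windows, against 6.57% of all windows. These matches describe the letters in these windows, and the absence of a match says only that the letters are not there. Several members have more than 1 RefSeq start, and the window nearest to the gene's GENCODE 29 start was used. ITGA6, with no GC box in that window, has 3 in its other one. The other ITGB5 windows hold 3 and 0 GC boxes, and the other ITGB1 window holds neither a GC box nor GGAATG. The ITGB1 window used lies inside the GENCODE 29 gene (chr10:32900319-33005792), not at its start, which is at 33005792 on the minus strand.

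Across the members, 9 of 10 had enough reads to test, and ITGB3 did not. ITGA5 passed the low-count filter only through the 30 µM libraries, where it was highest, so its rise adds nothing to the counts that follow. At 30 µM against control, 8 of the 9 rose and 1 fell, where 60.8% of the 17623 genes tested passed in either direction, 29.5% higher and 31.3% lower. The median log2 change of the 9 members was 0.75, against -0.04 for all genes tested. Of the 8 members other than ITGA5, 7 rose and 1 fell, with a median of 0.74. Of the 9, 4 rose by at least 1 log2 unit (ITGA2, ITGA3, ITGAV and ITGA5), where 7.84% of all genes rose by that much. ITGA5 was at 1.08, and at 0.62 (edgeR adjusted p = 0.341) without 30 µM replicate 1. In all 9, the 3 libraries at 30 µM lay wholly above or wholly below the 3 control libraries, as they did for 65.0% of genes.

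At 20 µM against control, 3 of the 9 passed, with 2 higher and 1 lower, where 34.2% of genes passed, 17.2% higher and 16.9% lower. Without 20 µM replicate 2, 5 passed, and the share of all genes passing in that fit is not given here. In 4 of the 9, ITGA1, ITGA2, ITGAV and ITGB5, no 20 µM library lay within the range of the controls or the reverse, as for 44.5% of genes. The members' median log2 change was 0.06, against 0.01 for all genes. At 30 µM against 20 µM, 8 members rose and 1 fell, where 57.0% of genes passed, 28.0% higher and 28.9% lower. The median of the members was 0.84, against -0.03 for all genes, and the libraries of the 2 doses did not overlap in any of the 9, as for 61.1% of genes. ITGA5, which passed the filter only through the 30 µM libraries, is in this count, median and non-overlap, and its rise adds nothing to them. The 2 comparisons with control share the control libraries, and both comparisons of 30 µM share the 30 µM libraries.

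**Figure D1:**
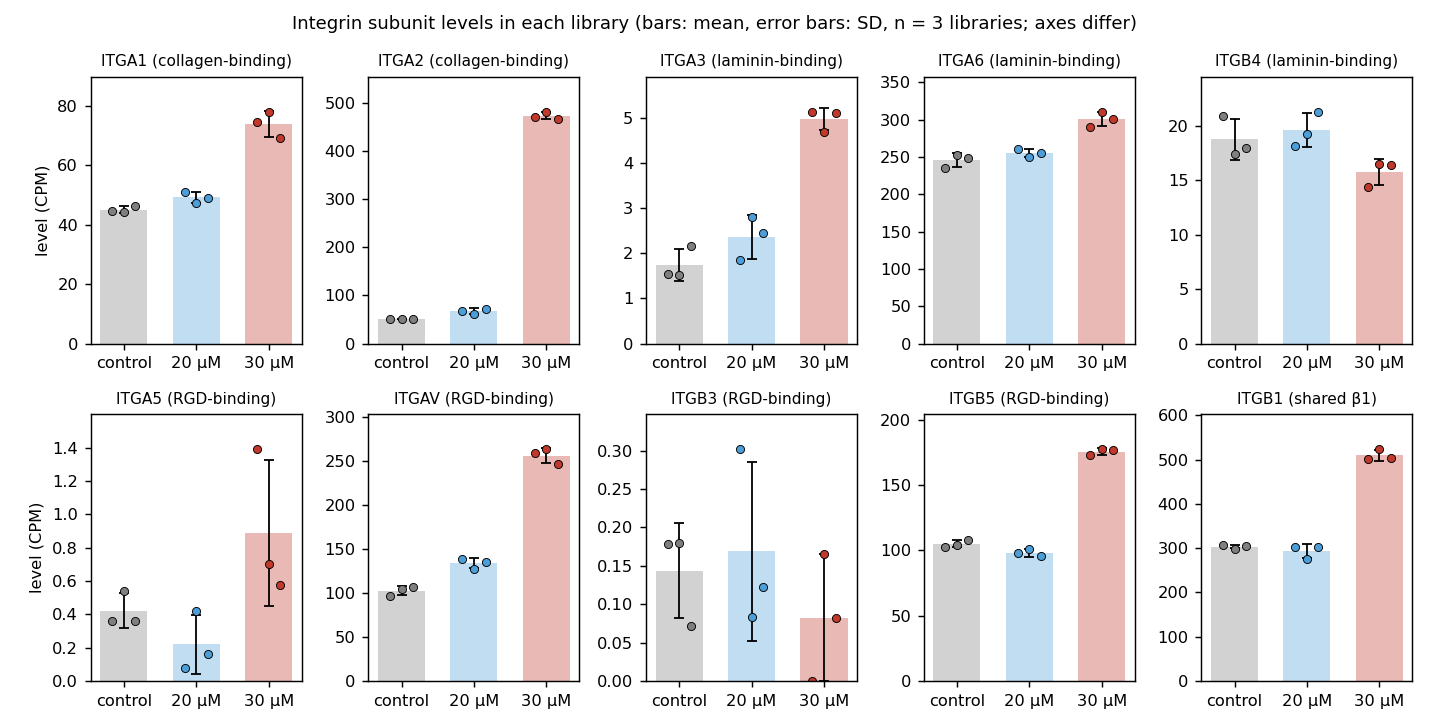
Level of each of the 10 integrin genes (CPM, linear axes that start at 0 and differ between panels) in control, 20 µM and 30 µM libraries. Points are libraries, bars are means and error bars are SD (n = 3 libraries). The ITGA2 points at 30 µM sit between 466.3 and 481.1 CPM, all far above the other 6 libraries, whereas the ITGB4 points at 30 µM, 14.4 to 16.5 CPM, sit just below the others.

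Among the collagen-binding members, ITGA2 encodes the α2 chain of the α2β1 collagen receptor (chr5:52989326-53094779, plus strand, GENCODE 29 on GRCh38). ITGA2 had 50.2, 50.9 and 51.9 CPM in control libraries, 68.2, 62.1 and 72.8 CPM at 20 µM, and 471.2, 481.1 and 466.3 CPM at 30 µM. The groups did not overlap at either dose, and each dose lay above the one before. At 20 µM ITGA2 rose by a log2 change of 0.41 ± 0.0451 (SE) against control (edgeR adjusted p = 7.89e-09). At 30 µM it rose by 3.21 ± 0.0441 against control (adjusted p = 6.97e-33) and by 2.80 ± 0.0430, or 6.98-fold, against 20 µM (adjusted p = 2.47e-31). It ranked 132 of 17623 genes tested by log2 rise at 30 µM against control, and 50 among the 10868 genes with a mean of at least 5 CPM.

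ITGA1 encodes the α1 chain of the other main collagen receptor, α1β1 (chr5:52787896-52959210, plus strand). ITGA1 had 44.6, 44.1 and 46.4 CPM in control libraries, 51.1, 47.4 and 48.9 CPM at 20 µM, and 74.5, 77.9 and 69.2 CPM at 30 µM. All 3 libraries of each dose lay above those of the dose before, but the step to 20 µM was small. At 20 µM its log2 change of 0.13 ± 0.0518 against control did not pass (edgeR adjusted p = 0.0608). At 30 µM ITGA1 rose by 0.71 ± 0.0507 against control (adjusted p = 3.57e-14) and by 0.59 against 20 µM (adjusted p = 5.71e-12). At 30 µM against control, the 95% interval of the ITGA2 change (3.13 to 3.30) lay above that of ITGA1 (0.61 to 0.81).

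PELO, a ribosome rescue factor, lies inside ITGA1 on the same strand and shares 475 of its exon bases, 2.56% of them. PELO had 52.7 ± 1.27 CPM at 30 µM against 29.6 ± 1.34 CPM in control libraries (SD, n = 3 each), a log2 change of 0.83 (edgeR adjusted p = 7.48e-15). How reads in the shared bases were assigned is not given in the sources used here.

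Among the laminin-binding members, ITGA6 encodes the α6 chain, which pairs with β1 or β4 (chr2:172427354-172506282, plus strand). ITGA6 had 235.4, 253.2 and 248.9 CPM in control libraries, 261.1, 249.7 and 255.4 CPM at 20 µM, and 291.0, 310.6 and 301.5 CPM at 30 µM. The 20 µM libraries overlapped the control libraries, and the 30 µM libraries lay above both. The log2 change at 20 µM against control was 0.06 ± 0.0355 (edgeR adjusted p = 0.246). At 30 µM ITGA6 rose by 0.29 ± 0.0354 against control (adjusted p = 9.42e-09) and by 0.24 against 20 µM (adjusted p = 6.71e-07). With library size as the only scaling, which moved the median of all genes at 30 µM to -0.25, the ITGA6 changes were 0.08 against control (adjusted p = 0.0419) and 0.04 against 20 µM (adjusted p = 0.303).

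ITGB4 encodes the β4 chain, which pairs with α6 and anchors hemidesmosomes to keratin filaments (chr17:75721328-75757818, plus strand). ITGB4 had 20.9, 17.4 and 18.0 CPM in control libraries, 18.2, 19.3 and 21.3 CPM at 20 µM, and 14.4, 16.5 and 16.4 CPM at 30 µM. The control and 20 µM libraries overlapped, and the 30 µM libraries lay below both by less than the width of the control group. Its log2 change at 20 µM against control was 0.06 ± 0.0829 (edgeR adjusted p = 0.657). At 30 µM ITGB4 fell by 0.25 ± 0.0850 on the log2 scale against control (adjusted p = 0.0105) and by 0.31 against 20 µM (adjusted p = 0.00226). The fall against control did not pass without control replicate 1 (-0.17, adjusted p = 0.122) or without 30 µM replicate 1 (-0.20, adjusted p = 0.0774).

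ITGA3 encodes the α3 chain of the laminin receptor α3β1 (chr17:50055968-50090481, plus strand) and was rare in these cells. ITGA3 had 1.54, 1.53 and 2.16 CPM in control libraries, 1.85, 2.80 and 2.45 CPM at 20 µM, and 5.14, 4.70 and 5.12 CPM at 30 µM. The control and 20 µM libraries overlapped, and the 30 µM libraries were clear of both. At 30 µM ITGA3 rose by a log2 change of 1.51 ± 0.193, or 2.84-fold, against control (edgeR adjusted p = 3.12e-08) and by 1.08 against 20 µM (adjusted p = 8.33e-06). At 20 µM against control the log2 change was 0.43 ± 0.205 (adjusted p = 0.111).

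Among the RGD-binding members, ITGAV encodes the αV chain, which serves vitronectin and fibronectin receptors and those that activate latent TGF-β (chr2:186590065-186680901, plus strand). ITGAV had 96.8, 104.2 and 106.8 CPM in control libraries, 138.5, 127.7 and 134.8 CPM at 20 µM, and 258.8, 263.3 and 246.3 CPM at 30 µM. It went up in both steps, with no overlap between any of the groups. At 20 µM ITGAV rose by a log2 change of 0.38 ± 0.0414 against control (edgeR adjusted p = 4.52e-09). At 30 µM it rose by 1.32 ± 0.0410 against control (adjusted p = 8.70e-24) and by 0.94, or 1.92-fold, against 20 µM (adjusted p = 1.17e-19).

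ITGB5 encodes the β5 chain, which pairs with αV alone (chr3:124761948-124901418, minus strand). ITGB5 had 102.8, 103.9 and 108.1 CPM in control libraries, 97.7, 101.2 and 95.3 CPM at 20 µM, and 172.6, 177.3 and 176.5 CPM at 30 µM. The 20 µM libraries lay just below the control libraries, and the 30 µM libraries well above both. At 30 µM ITGB5 rose by a log2 change of 0.74 ± 0.0381 against control (edgeR adjusted p = 6.80e-18) and by 0.84, or 1.79-fold, against 20 µM (adjusted p = 4.89e-19). At 20 µM it fell by 0.10 ± 0.0388 on the log2 scale against control (adjusted p = 0.0498), a call that was lost in 16 of 19 alternative settings. At 20 µM the 95% interval of the log2 change was 0.30 to 0.46 for ITGAV and -0.17 to -0.02 for its partner ITGB5.

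ITGA5 encodes the α5 chain of the fibronectin receptor α5β1 (chr12:54395261-54419460, minus strand), a main integrin of normal hepatocytes, and was near the limit of detection. ITGA5 had 10, 12 and 10 counts in control libraries, 2, 10 and 4 counts at 20 µM, and 30, 17 and 14 counts at 30 µM. The highest 20 µM library reached the control libraries, and all 3 libraries at 30 µM lay above them, with replicate 1 the highest. At 30 µM ITGA5 rose by a log2 change of 1.08 ± 0.457 against control (edgeR adjusted p = 0.0411) and by 2.01 ± 0.509 against 20 µM (adjusted p = 0.00105). ITGA5 passed the low-count filter only through these 30 µM libraries, so neither p-value is support for a rise. The rise against control did not pass in 8 of 18 alternatives, and without 30 µM replicate 1 it was 0.62 (adjusted p = 0.341). At 20 µM against control the log2 change was -0.93 ± 0.554 (adjusted p = 0.210).

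ITGB3 encodes the β3 chain of αVβ3, known from platelets and endothelium (chr17:47253846-47311816, plus strand). ITGB3 had 5, 4 and 2 counts in control libraries, 8, 2 and 3 counts at 20 µM, and 0, 4 and 2 counts at 30 µM. The groups overlapped, and at these counts no difference between them was detectable. Of its exon bases, 51.6% are shared on the same strand with AC068234.1, which had 0 counts in all 9 libraries, and how reads in those bases were assigned is likewise not given. Reads totalled as ambiguous between genes numbered 1569864 to 1982769 per library. Whether ITGB3 reads were among them was not tested, so its level may be understated.

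ITGB1 encodes the β1 chain, the partner of all the α chains listed here (chr10:32900319-33005792, minus strand). ITGB1 had 307.7, 299.1 and 303.8 CPM in control libraries, 301.5, 275.8 and 303.7 CPM at 20 µM, and 501.5, 523.5 and 504.4 CPM at 30 µM. The control and 20 µM libraries overlapped, and the 30 µM libraries lay far above both. Its log2 change at 20 µM against control was -0.05 ± 0.0352 (edgeR adjusted p = 0.329), with a 95% interval of -0.12 to 0.02. At 30 µM ITGB1 rose by 0.75 ± 0.0351 against control (adjusted p = 5.66e-19) and by 0.80, or 1.74-fold, against 20 µM (adjusted p = 1.98e-19). At 20 µM the interval for ITGB1 lay below those for ITGA2 (0.32 to 0.50) and ITGAV (0.30 to 0.46).

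**Figure D2:**
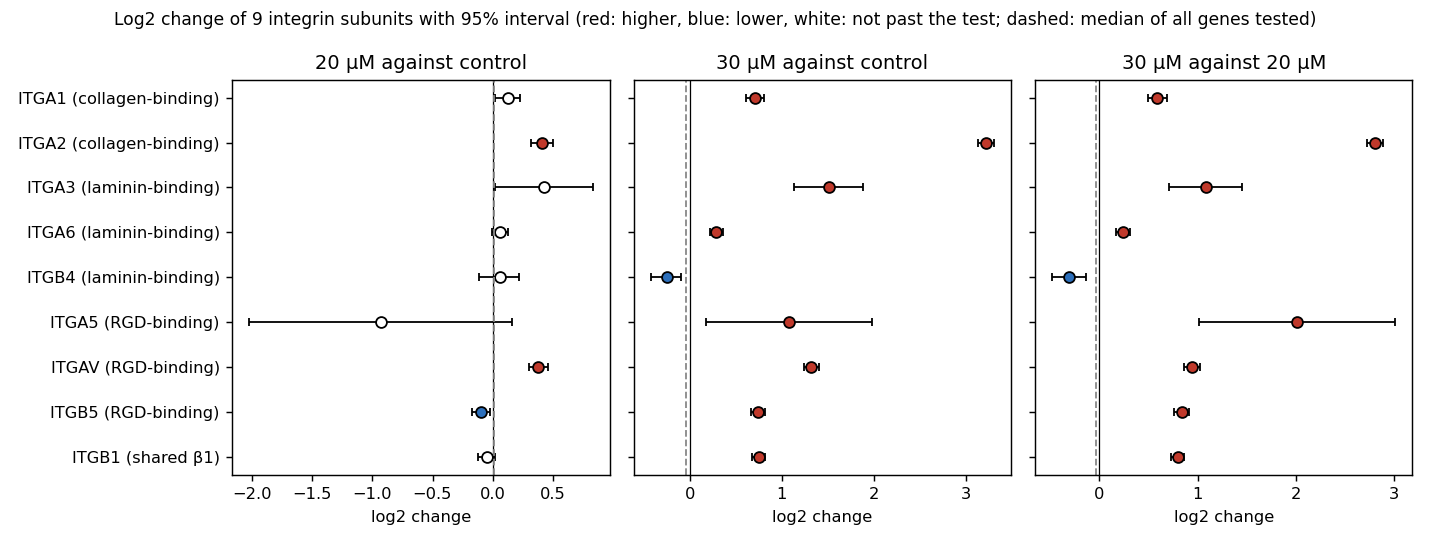
Log2 change of the 9 integrin genes tested, for 20 µM against control, 30 µM against control and 30 µM against 20 µM (the horizontal axes differ). Points are estimates with 95% intervals, red is higher, blue is lower and white is not past an edgeR adjusted p of 0.05, and the dashed line is the median of all genes tested. ITGA2 stands apart at 3.21 in the second panel and at 2.80 in the third, and ITGA5 has the widest intervals.

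By ligand class, the 2 collagen-binding members had a median log2 change of 1.96 at 30 µM against control, the 3 laminin-binding members 0.29 and the 3 RGD-binding members tested 1.08. The collagen-binding median lies between 2 distant values, 0.71 for ITGA1 and 3.21 for ITGA2. The laminin-binding median is the value of ITGA6 itself, with ITGA3 at 1.51 and ITGB4 at -0.25. The RGD-binding median is the value of ITGA5 itself, and the other RGD-binding members tested, ITGAV and ITGB5, were at 1.32 and 0.74. By chain, all 6 α members rose at 30 µM against control, with a median of 1.20, where 29.5% of all genes tested rose and 31.3% fell. ITGA5 is among them, so its rise again adds nothing to the count, and it also enters the median. Of the 3 β members tested, ITGB1 and ITGB5 rose and ITGB4 fell, with a median of 0.74, beside the same shares of all genes. These medians describe few genes of different depth and were not tested against each other.

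Levels of different genes were set side by side per kilobase of GENCODE 29 exon bases, a scale that depends on the annotated length, above all for ITGA1 with 18566 exon bases. In control libraries the order was ITGB1 (50.5 CPM per kb), ITGA6 (37.6), ITGB5 (16.3), ITGAV (12.5), ITGA2 (6.45), ITGB4 (2.78), ITGA1 (2.42), ITGA3 (0.178), ITGA5 (0.0554) and ITGB3 (0.0327), and no neighbours in it overlapped. At 20 µM ITGB1 (48.9 CPM per kb) and ITGA6 (39.1) again led, and ITGAV (16.3) stood beside ITGB5 (15.2) with overlapping libraries. ITGB4 (2.90) with ITGA1 (2.64), and ITGB3 (0.0385) with ITGA5 (0.0289), also overlapped at that dose. At 30 µM ITGA2 (59.8 CPM per kb) was second to ITGB1 (84.8), followed by ITGA6 (46.1), ITGAV (31.2), ITGB5 (27.2), ITGA1 (3.98), ITGB4 (2.33), ITGA3 (0.509), ITGA5 (0.117) and ITGB3 (0.0188), with no overlap between neighbours.

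The makeup of the α chains differed with dose on this scale. Collagen-binding α chains took 15.0 ± 0.425% of the summed α level in control libraries, 16.7 ± 0.706% at 20 µM and 45.0 ± 0.270% at 30 µM (SD, n = 3 each). Laminin-binding α chains took 63.8 ± 0.469% in control libraries, 58.9 ± 0.761% at 20 µM and 32.9 ± 0.703% at 30 µM. RGD-binding α chains took 21.2 ± 0.383% in control libraries, 24.4 ± 0.250% at 20 µM and 22.1 ± 0.510% at 30 µM. The collagen and laminin shares thus moved in opposite directions, by 30.0 and -30.9 percentage points at 30 µM against control, and the RGD share by 0.917 points.

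Most of these class shares were single genes. ITGA2 alone made up 42.2% of the α level at 30 µM and 12.8% at 20 µM, against 10.9% in control libraries. ITGA6 made up 32.5% at 30 µM and 58.5% at 20 µM, against 63.5% in control libraries, although its own level rose at 30 µM. In 2-sided exact permutation tests over libraries, 8 of the 9 share differences gave p = 0.1, the smallest that 3 against 3 libraries can give (adjusted p = 0.112 over the 9), and the RGD share at 30 µM against control gave p = 0.2 (adjusted p = 0.200). No share test could therefore reach 0.05, and the 9 are not independent, because the shares of a library add up to the whole.

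Among the β chains, the makeup moved little. ITGB1 made up 74.1% of the summed β level at 30 µM and 72.9% at 20 µM, against 72.6% in control libraries, and ITGB5 made up 23.8% and 22.7%, against 23.4%. ITGB4 made up 2.04% at 30 µM and 4.33% at 20 µM, against 3.99% in control libraries. The α levels summed to 56.8, 60.5 and 60.4 CPM per kb in control libraries, 68.4, 64.5 and 67.6 at 20 µM, and 140.3, 145.2 and 139.4 at 30 µM. The β levels summed to 70.3, 68.5 and 70.0 CPM per kb in control libraries, 68.1, 64.5 and 68.5 at 20 µM, and 112.3, 117.1 and 113.7 at 30 µM. The ratio of α to β level was 1.23 to 1.25 at 30 µM and 0.987 to 1.01 at 20 µM, against 0.808 to 0.883 in control libraries. All 10 genes together held 0.162 to 0.169% of gene counts at 30 µM and 0.0921 to 0.0984% at 20 µM, against 0.0901 to 0.0939% in control libraries.

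**Figure D3:**
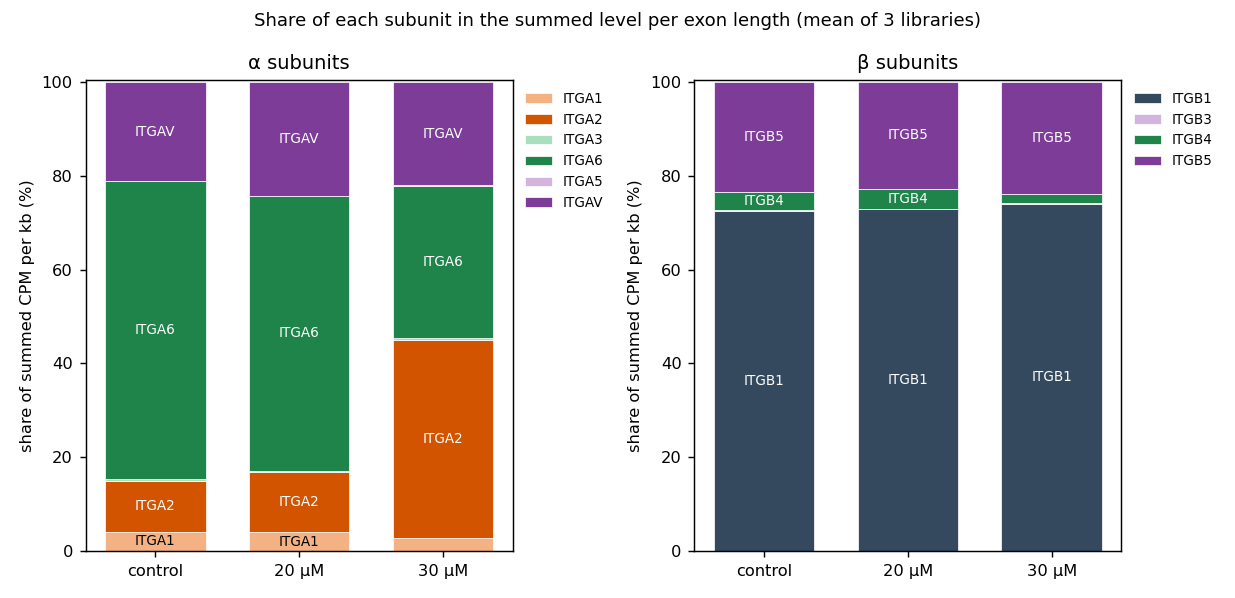
Share of each subunit in the summed CPM per kb of the α chains (left) and β chains (right), as means of 3 libraries in control, 20 µM and 30 µM groups; segments too thin to letter are named in the legend. ITGA2 takes 42.2% of the α bar at 30 µM, against 10.9% in control libraries, while the β bars differ little.

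Of the 16 other integrin subunits listed, 6 had enough reads to test. At 30 µM against control 1 rose and 4 fell, with a median log2 change of -0.36, where 29.5% of genes rose and 31.3% fell. ITGA10, another collagen-binding α chain, had 0.681, 0.766 and 0.359 CPM in control libraries, 0.793, 0.835 and 1.02 CPM at 20 µM, and 3.33, 3.96 and 3.26 CPM at 30 µM. The 30 µM libraries lay above all others, and ITGA10 rose by 2.56 ± 0.269 against control (edgeR adjusted p = 4.70e-10). The 4 that fell at 30 µM against control were leukocyte subunits: ITGAL by 1.40 on the log2 scale (adjusted p = 0.000143), ITGB7 by 0.90 (adjusted p = 0.000332), ITGB2 by 0.41 (adjusted p = 0.00230) and ITGAE by 0.31 (adjusted p = 0.0158). ITGA7, a laminin-binding chain known from muscle, had a log2 change of 0.61 (adjusted p = 0.150).

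Adaptors link the β chains to actin, and 22 of 23 listed were tested. At 30 µM against control 16 rose and 3 fell, with a median log2 change of 0.43, where 29.5% of genes rose and 31.3% fell. BCAR1, a docking protein phosphorylated at adhesions, had 596.0 ± 24.2 CPM at 30 µM against 206.4 ± 2.77 CPM in control libraries (SD, n = 3 each; log2 change 1.53, edgeR adjusted p = 1.75e-27). The actin-binding zyxin gene ZYX rose by 1.51 and FLNA, which encodes filamin A, by 0.89. The talin gene TLN2 fell by 1.14, KANK2 by 0.84 and the kindlin gene FERMT1 by 0.37. With library size as the only scaling, the split was 12 higher and 6 lower, where all genes split 3530 higher and 8022 lower. At 20 µM against control 7 rose and 6 fell, where 17.2% of genes rose and 16.9% fell. FLNA was among those that fell at 20 µM, by 0.23 on the log2 scale (edgeR adjusted p = 3.77e-07).

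Of 9 listed genes that switch integrins off or carry them through endosomes, 8 were tested. At 30 µM against control 4 rose and 3 fell, with a median of 0.19, where 29.5% of genes rose and 31.3% fell. The small GTPase genes RAB21, RAB11A and ARF6, which recycle integrins, rose by 0.49, 0.47 and 0.28, and the last was no longer called with library size as the only scaling. The adaptor genes DAB2, SNX17 and ITGB1BP1 fell by 0.28, 0.19 and 0.19. Of 7 genes for tetraspanins and hemidesmosome proteins, 4 were tested. All of those rose at 30 µM against control, as did 29.5% of genes, with a median of 1.03. DST, whose epithelial form binds β4 in hemidesmosomes, rose by 1.30, the tetraspanin CD151 by 0.77 and plectin (PLEC) by 0.60, while ITGB4 itself fell.

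Ligand genes were read in the same way at 30 µM against control, where 29.5% of genes rose and 31.3% fell. Of 10 collagen genes 4 were tested and 3 rose, with a median of 0.98. One of these, COL6A2, passed the low-count filter only through the 30 µM libraries (25, 26 and 19 counts, against 3, 0 and 0 in control libraries), and without it 2 of 3 rose, with a median of 0.74, the value of COL6A1. Of 10 laminin genes 7 were tested, 4 rose and 3 fell, with a median of 0.22. LAMB3 likewise passed only through the 30 µM libraries, and without it 3 rose and 3 fell, with a median of 0.08. LAMA1 was too low to test, with 0, 1 and 1 counts at 30 µM, against 7, 5 and 9 in control libraries. LAMA3 fell to 2.62 ± 0.388 CPM at 30 µM, against 11.3 ± 0.502 CPM in control libraries (log2 change -2.10, edgeR adjusted p = 1.13e-15). LAMB2 rose by 0.57 and LAMB1 by 0.22, the second not called with library size as the only scaling. LAMA5 and LAMC1 fell by 0.09 and 0.07, calls that were lost with median-ratio scaling.

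Of 13 genes for RGD-containing ligands 10 were tested. Of these, 6 rose and 3 fell at 30 µM against control, where 29.5% of genes rose and 31.3% fell. Their median was 0.25. Thrombospondin 1 (THBS1) had 136.3 ± 1.14 CPM at 30 µM against 24.3 ± 1.55 CPM in control libraries (log2 change 2.49, edgeR adjusted p = 3.36e-29). TGFB1, whose latent protein is a ligand of αV integrins, rose by 1.85 and the fibronectin gene FN1 by 1.04. FGA, which encodes the fibrinogen α chain, fell by 0.44, NPNT by 0.59 and FBN1 by 0.48.

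Of 7 matrix receptors outside the integrin family, all were tested. At 30 µM against control 3 rose and 3 fell, with a median of -0.05, where 29.5% of genes rose and 31.3% fell. CD44 passed only through the 30 µM libraries (11, 21 and 26 counts, against 1, 0 and 2 in control libraries), and without it 2 rose and 3 fell, with a median of -0.15. Syndecan 4 (SDC4), a coreceptor for fibronectin, had 387.4 ± 0.434 CPM at 30 µM against 54.2 ± 2.41 CPM in control libraries (log2 change 2.84, edgeR adjusted p = 8.79e-34). The collagen receptor kinase DDR1 rose by 0.89. The laminin receptors BCAM and DAG1 fell by 0.69 and 0.25, and syndecan 1 (SDC1) by 0.90.

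**Figure D4:**
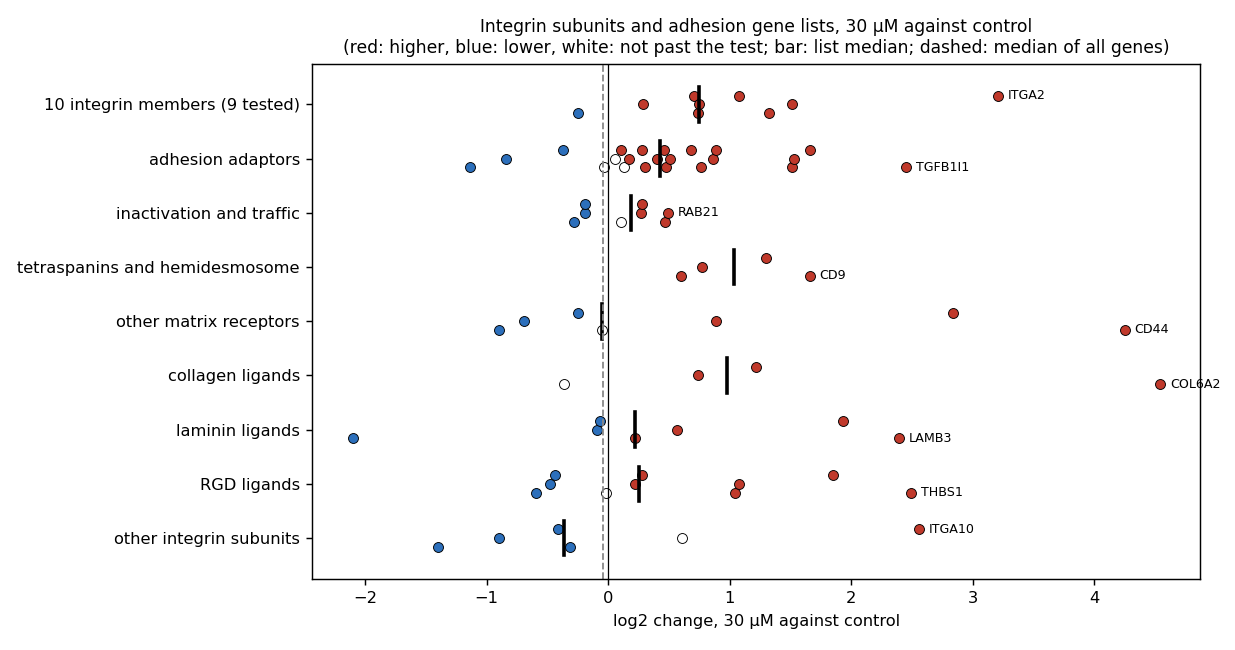
Log2 change at 30 µM against control for the 9 integrin genes tested and for 8 lists of adhesion genes; each point is a gene, red is higher, blue is lower and white is not past an edgeR adjusted p of 0.05. Bars are list medians, the dashed line is the median of all genes (-0.04), and the gene with the largest change in each list is labelled, chosen after its value was seen. Of the genes drawn, ITGA5, COL6A2, LAMB3 and CD44 passed the low-count filter only through the 30 µM libraries. The members' median is 0.75, with ITGA2 to the far right and ITGB4 alone below 0.

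The genes most like each leading member were found by the Euclidean distance between log2 CPM profiles centred on the control mean, over the 9 libraries and 10861 genes with a mean of at least 5 CPM. For ITGA2 they were GPAT3, an enzyme of triglyceride synthesis (distance 0.240), GLIPR1 (0.572) and LGALS3, which encodes galectin 3 (0.573), where the median distance of all genes was 5.63. GPAT3 had an edgeR log2 change against control of 0.40 at 20 µM and 3.28 at 30 µM, against 0.41 and 3.21 for ITGA2. For ITGAV they were CLN8 (0.112), HAVCR1 (0.115) and ACSL3 (0.145), with a median distance of 2.45. For ITGB1 they were KBTBD2 (0.114), CDV3 (0.114) and HKDC1 (0.133), with a median of 1.44. For ITGA6 they were the Golgi mannosidase gene MAN2A1 (0.0857), SLC9B2 (0.0883) and EXOC2 (0.0891), with a median of 0.897.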

How the data were processed

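The deposited values are raw read counts for each gene and library, which the authors made with FastQC, STAR 2.7.10a and HTSeq on hg38, per the submitters' processing notes. No source used here names the annotation release or the strand setting, and values of overlapping and antisense genes are uncertain. For the library, the labels name polyA RNA, while the labels' protocols describe ribosomal depletion of total RNA with a stranded kit. A lower dose in the series text was not analysed here. The closing HTSeq totals of each file, 40.6 to 44.0% of records, were kept out of the genes.

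Genes were kept with filterByExpr (17623, holding 99.9% of gene counts), given TMM factors and entered in the quasi-likelihood test of edgeR 4.0.16 (R 4.3.3), with a mean per group over all 9 libraries. The biological coefficient of variation was 0.0529. Adjusted p-values are Benjamini-Hochberg over all genes tested in each comparison. The script was tested on simulated data. No pair of libraries of a group agreed within sampling noise. All 127 listed symbols matched 1 identifier. Named from each list were up to 3 genes in each direction, by smallest p at 30 µM against control and a mean of at least 5 CPM, and every other integrin subunit tested. Exon lengths and positions are from GENCODE 29. The members and lists were chosen with earlier results of these data known. The 19 alternatives covered scaling, filters, DESeq2 1.42.0, limma voom (limma 3.58.1), 2-group fits, a replicate block and left-out libraries. The count of reads limits ITGA5 and ITGB3.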

Additional observations from a re-analysis of the deposited data

How the results depend on the processing

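Over 19 alternatives, the members' values kept their direction and side of the threshold in 145 of 168 cases for 20 µM against control. They did so in 159 of 170 for 30 µM against control, and in 169 of 170 between the doses. The one that turned was ITGB4 at 20 µM, which ran from -0.01 (edgeR adjusted p = 0.942, without 20 µM replicate 3) to 0.14 (without control replicate 1) as single libraries were left out. Leaving out 1 library gave 2 to 5 members called at 20 µM against control (3 with all libraries, 5 without 20 µM replicate 2, with ITGA1 at 0.15, adjusted p = 0.0377, and ITGA5 at -1.77, adjusted p = 0.0462), and 7 to 9 at 30 µM against control. With all libraries, 34.2% and 60.8% of all genes tested were called in these 2 comparisons. Their shares with 1 library left out are not given here, so these swings cannot be set against them. Without division by length, the collagen share differed by 27.8 points at 30 µM against control and 26.3 against 20 µM, the laminin share by -27.9 and -23.1, and the RGD share by 0.0972 and -3.17. With library size as the only scaling, all genes split 3530 higher and 8022 lower at 30 µM against control, against 5192 and 5515 with TMM. The labels do not say that the numbers pair the libraries. Same-numbered libraries correlated at 0.15, 0.08 and 0.35 between the doses, and at -0.20 to 0.14 between control and either dose, so the numbers were not taken to pair them. Across numbers, control replicate 1 correlated at 0.33 with 20 µM replicate 3 and at 0.34 with 30 µM replicate 3. The other pairs of unlike number ran from -0.26 to 0.14. With the replicate block, the calls among members were 2 for 20 µM against control, 8 for 30 µM against control and 9 between the doses, where 33.8%, 60.3% and 56.5% of all genes were called. The calls lost were ITGB5 at 20 µM (adjusted p = 0.0621) and ITGA5 at 30 µM (adjusted p = 0.0507). Earlier work found 3 libraries to deviate together: control replicate 1, 20 µM replicate 3 and 30 µM replicate 3. Without these 3, ITGB4 at 30 µM against control was -0.20 (edgeR adjusted p = 0.0862). The causes were not tested. Depth limits ITGA5 and ITGB3, and ITGA5 could not be tested at a mean of at least 50 counts.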
